A study of Saccharomyces cerevisiae with 9 samples.

Results

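The genes described here are the budding yeast genes for the synthesis of histidine, the branched-chain amino acids, lysine, the aromatic amino acids, serine, threonine and proline, together with GCN4, the gene of the transcription factor that activates many of them. They were chosen by name from textbook pathways, 47 genes in all, with earlier results of these data known. A probe set was found for 46 of them among the 5449 Saccharomyces cerevisiae genes read by the array, and TRP1 was not analysed here. All 46 passed the filter on low levels that left 4359 genes for testing. Member signals ran from 147 for HIS6 to 4019 for HOM2 in arbitrary units, against a 95th percentile of 14.7 to 15.9 for the probe sets of another organism on the same arrays, so each member was read above background on every array. Whether the probe set of a member also reads other transcripts was not tested.

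The study grew the strains KF7, NBRC1958 and NBRC2018 in YPD, a rich medium of yeast extract, peptone and glucose, with 0, 20 or 60 g/L of added succinic acid, a dicarboxylic acid, to examine the response to acid stress. All cultures were kept at 35 °C and 200 rpm for 6 hours. The labels give no genotype or other treatment for the strains. There was 1 single-colour array for each strain and dose, 9 in all, so a dose is replicated over the 3 strains and a strain over the 3 doses. The labels do not say that arrays came from separate cultures, and the p-values measure only the spread between these samples. Median signals over all yeast genes lay between 294 and 311.

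Gcn4 is the master regulator of general amino acid control in yeast. When amino acids run short, uncharged tRNA activates the kinase Gcn2, which phosphorylates the translation factor eIF2, and short upstream reading frames in the GCN4 transcript then allow more Gcn4 protein to be made. Its activity is therefore set largely by translation and protein turnover, and the transcript level of GCN4 is only a partial readout. Individual pathways also answer to their own regulators, such as Leu3 for leucine and Lys14 for lysine. In rich medium the amino acids are largely supplied by the peptone.

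At 60 against 0 g/L, 9 members fell and 1 rose by a linear model with strain as a block, at an adjusted p under 0.05 over all genes tested. The genes that fell were HIS4, LEU2, BAT1, ARO2, ARO3, ARO4, SER33, HOM2 and THR1, and SER3 rose. Falls thus made up 19.6% of the members against 14.2% of all genes tested, and rises 2.17% against 8.67%, so the share that fell was near the background and the share that rose was below it. The median log2 difference of the 46 members was -0.19, beside -0.05 over all genes, and 34 of 46 (73.9%) had a negative difference against 56.8% of all genes. By strain the members' median was -0.36 in NBRC1958, -0.13 in NBRC2018 and -0.22 in KF7. Signals of 10 members were lower on every 60 g/L array than on any 0 g/L array, 21.7% of the members against 15.8% of all genes, and 3 were higher on every 60 g/L array, 6.52% against 7.36%. Array medians were nearly equal, as above, so less transcript per cell and a change in total RNA per cell cannot be told apart. The count of 10 calls was 4 when the unstressed NBRC1958 array was left out (ARO3, ARO4, LEU2 and SER3) and 16 when the 60 g/L KF7 array was. Differences here and below are on the scale of log2(signal + 16).

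**Figure D1:**
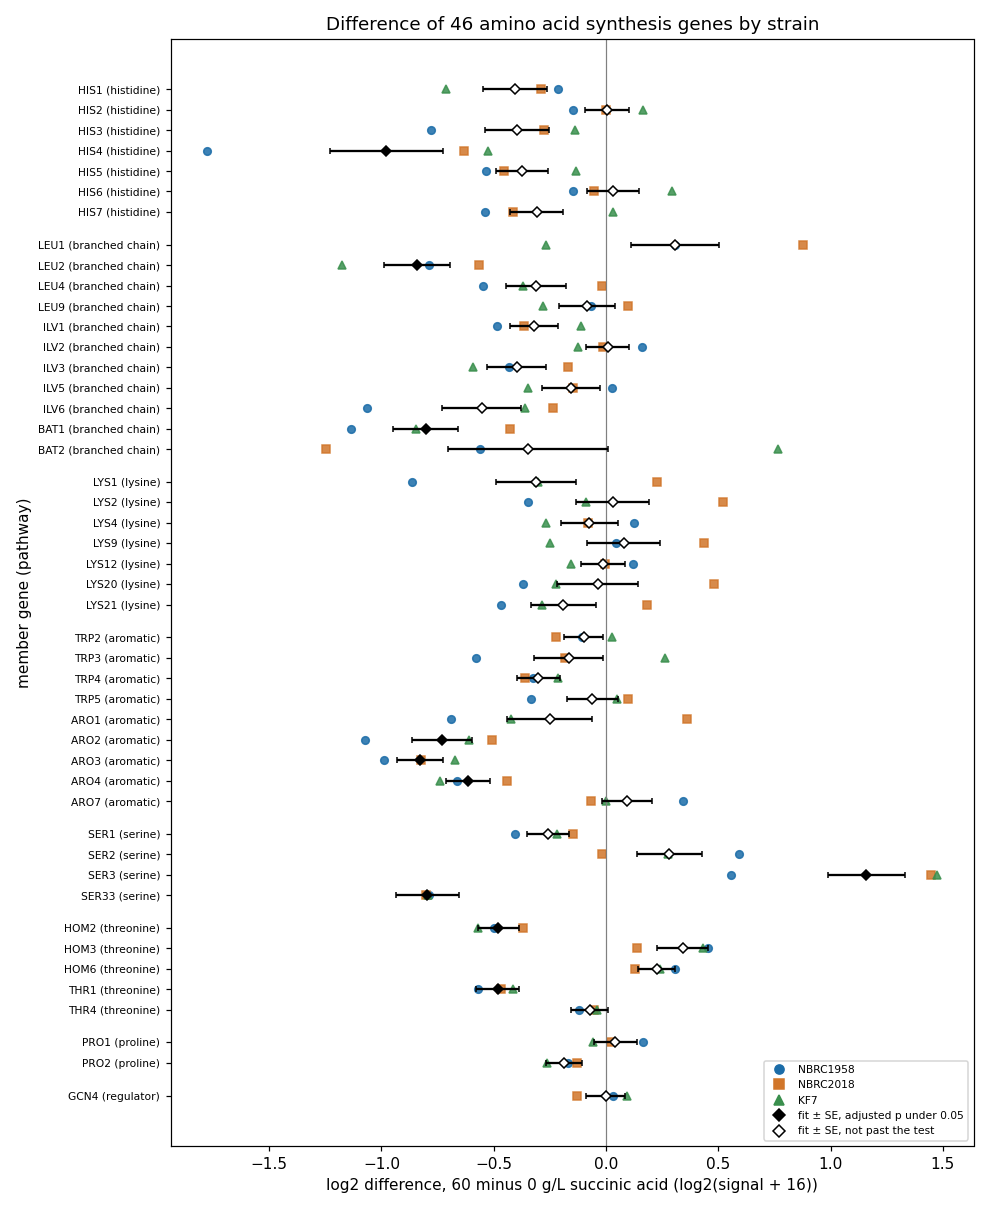
Log2 difference between 60 and 0 g/L (horizontal axis) for each of the 46 members (vertical axis, by pathway). Coloured points are single strains, 1 array at each dose, and diamonds the fitted difference ± SE, filled where the adjusted p was under 0.05. Most filled diamonds lie left of 0, and SER3 at 1.16 is the filled diamond right of it.

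GCN4 itself (YEL009C) was nearly level. At 0, 20 and 60 g/L, the order used for all values below, its signals were 3317, 3392 and 3392 in NBRC1958, 3861, 3729 and 3525 in NBRC2018 and 3125, 3319 and 3331 in KF7. The dose groups overlapped, and NBRC2018 was the highest strain at each dose. The log2 difference at 60 against 0 g/L was -0.002 (SE 0.0861, adjusted p = 0.985), and the pairs of strains did not pass either. Among 15 tested genes of Gcn4 control and pathway regulation, 1 rose and 2 fell at 60 against 0 g/L. Of all genes tested, 8.67% rose and 14.2% fell, so these counts were near the background. GCN1, whose product helps to activate Gcn2, rose from 501 ± 39.3 to 704 ± 94.8 (mean ± SD, n = 3). The log2 difference was 0.47 at an adjusted p of 0.0193. GCN5, a histone acetyltransferase that acts as a coactivator, fell, with a difference of -0.39 (adjusted p = 0.0233). PHO2, a homeodomain factor that acts with Bas1 at HIS4, also fell, with -0.60 (adjusted p = 0.0104). GCN2 and LEU3 had differences of 0.05 and -0.04 and did not pass, and LYS14 lay below the level filter. These 3 were chosen with their values in view.

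Histidine synthesis is a pathway of which all 7 genes were measured. Only HIS4 passed, downward, and the median log2 difference of the 7 was -0.37, and by strain it was -0.54 (NBRC1958), -0.29 (NBRC2018) and -0.13 (KF7). HIS4 (YCL030C), a multifunctional enzyme of several steps, had signals of 2688, 2077 and 774 in NBRC1958, 1463, 1070.2 and 939 in NBRC2018 and 2105, 1527 and 1457 in KF7. It was lower with each step in dose in every strain, and the fall was steepest in NBRC1958. Its mean went from 2085 ± 613 to 1057 ± 356, a log2 difference of -0.98 (SE 0.252, adjusted p = 0.0285). NBRC1958 had a difference of -1.77, NBRC2018 of -0.63 and KF7 of -0.53. HIS4 did not pass when any of the 3 unstressed arrays was dropped, at differences of -0.79 to -1.08 and adjusted p of 0.0572 to 0.147. It passed without the 60 g/L NBRC1958 array, but the difference shrank to -0.57.

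The other histidine genes did not pass. HIS5 (YIL116W), the histidinol-phosphate aminotransferase, had signals of 1179, 1144 and 809 in NBRC1958, 954, 948 and 693 in NBRC2018 and 1249, 1117 and 1137 in KF7. Its difference was -0.37 (adjusted p = 0.053), and the dose groups overlapped. HIS1 (YER055C), the ATP phosphoribosyltransferase of the first step, gave 1267, 1437 and 1088 in NBRC1958, 2501, 2043 and 2042 in NBRC2018 and 1901, 1880.0 and 1153 in KF7, a difference of -0.41 (adjusted p = 0.0707). Here the strains lay further apart than the doses, with NBRC2018 highest at each dose. HIS2 (YFR025C), the histidinol phosphatase, gave 257, 273 and 231 in NBRC1958, 292, 292 and 292 in NBRC2018 and 432, 440.2 and 486 in KF7. It differed little with dose (difference 0.01), and KF7 was above both other strains at each dose. HIS3 (-0.40), HIS7 (-0.31) and HIS6 (0.03), enzymes of the middle of the pathway, did not pass either.

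Among 11 branched-chain genes, LEU2 and BAT1 fell at 60 against 0 g/L and the others did not pass. LEU2 (YCL018W), the isopropylmalate dehydrogenase of leucine synthesis, had signals of 1057, 943 and 605 in NBRC1958, 699, 475 and 468 in NBRC2018 and 1139, 699 and 496 in KF7. All 60 g/L arrays lay below all 0 g/L arrays. The mean went from 965 ± 234 to 523 ± 72.5, a log2 difference of -0.84 (SE 0.146, adjusted p = 0.00793), and LEU2 passed with any single array left out. BAT1 (YHR208W), the mitochondrial branched-chain aminotransferase, gave 3148, 2278 and 1422 in NBRC1958, 2133, 1536 and 1581 in NBRC2018 and 2239, 1691 and 1239.9 in KF7. Its 60 g/L arrays all lay below its 0 g/L arrays, the 20 g/L arrays overlapped both groups, and in NBRC2018 the 20 and 60 g/L signals were close to each other. The difference was -0.80 (SE 0.144, adjusted p = 0.00889), with an adjusted p of 0.0585 when the unstressed NBRC1958 array was dropped.

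ILV6 (YCL009C), the regulatory subunit of acetolactate synthase, had signals of 2933, 2823 and 1393 in NBRC1958, 1947, 1729 and 1651 in NBRC2018 and 2635, 2728 and 2049.6 in KF7. It was lower at 60 than at 0 g/L in each strain, with -1.07 in NBRC1958 and smaller values in the other strains, and did not pass (fitted difference -0.55, adjusted p = 0.055). ILV2, the catalytic subunit of the same enzyme, had a difference of 0.01 (adjusted p = 0.962). ILV1 (YER086W), the threonine deaminase that opens isoleucine synthesis, gave 690.2, 646 and 488 in NBRC1958, 1084, 879.8 and 838 in NBRC2018 and 879, 878 and 813 in KF7, with NBRC1958 the lowest strain at each dose. Its difference of -0.32 did not pass (adjusted p = 0.0625). The reductoisomerase ILV5 (-0.16), the dehydratase ILV3 (-0.40) and the isopropylmalate synthase genes LEU4 (-0.31) and LEU9 (-0.08) did not pass.

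Of these genes 2 behaved unlike the rest and were chosen for fuller description after their values were seen. LEU1 (YGL009C), the isopropylmalate isomerase, had signals of 937, 671 and 1162 in NBRC1958, 729.7, 581 and 1356 in NBRC2018 and 778, 545 and 643 in KF7. The 20 g/L array was the lowest of each strain. LEU1 passed upward at 60 against 20 g/L (0.74, adjusted p = 0.041) but not at 60 against 0 g/L (0.31, adjusted p = 0.274), and the first call held in 3 of the 9 fits that left out 1 array. BAT2 (YJR148W), the cytosolic aminotransferase, gave 477, 507 and 319 in NBRC1958, 1288, 1196 and 534 in NBRC2018 and 1150.5, 1049.8 and 1965 in KF7. The difference at 60 against 0 g/L was negative in NBRC1958 (-0.56) and NBRC2018 (-1.25) and positive in KF7 (0.76), which did not pass the test of unequal slopes (unadjusted p = 0.00283, adjusted p = 0.462).

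No lysine gene passed in any dose comparison. This pathway runs from homocitrate synthase (LYS20 and LYS21) through homoaconitase (LYS4), homoisocitrate dehydrogenase (LYS12) and aminoadipate reductase (LYS2) to the saccharopine dehydrogenases (LYS9 and LYS1). LYS1 (YIR034C) had signals of 493, 309.5 and 264 in NBRC1958, 294, 232 and 347 in NBRC2018 and 509, 375 and 409 in KF7, a difference of -0.31 at 60 against 0 g/L (adjusted p = 0.23). LYS21 (YDL131W) gave 1207, 916 and 867 in NBRC1958, 742, 788 and 844 in NBRC2018 and 1028, 1138 and 842 in KF7 and LYS4 (YDR234W) 576, 549 and 629.6 in NBRC1958, 700.2, 549 and 661 in NBRC2018 and 510.1, 526 and 421 in KF7, with differences of -0.19 and -0.07. For each of the 3, the dose groups overlapped and the strains moved in different directions. LYS12 (YIL094C) gave 1570.3, 1657 and 1709 in NBRC1958, 2047, 1751 and 2039.6 in NBRC2018 and 1628, 1359 and 1458 in KF7, with NBRC2018 the highest strain at each dose.

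Within NBRC2018 the 7 lysine genes shared a direction from 20 to 60 g/L, but not the place of the 0 g/L array. There all 7 were higher at 60 than at 20 g/L, with a median difference of 0.55, against 4 of 7 in KF7 (median 0.10) and 3 of 7 in NBRC1958 (median -0.08). At 60 against 0 g/L their median was 0.23 in NBRC2018, -0.25 in KF7 and -0.35 in NBRC1958. Over all genes tested the median at 60 against 20 g/L was -0.053 in NBRC2018, -0.055 in KF7 and -0.068 in NBRC1958. Each of these values rests on 1 array per strain and dose. None of the 7 slopes differed between strains at an unadjusted p under 0.05.

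**Figure D2:**
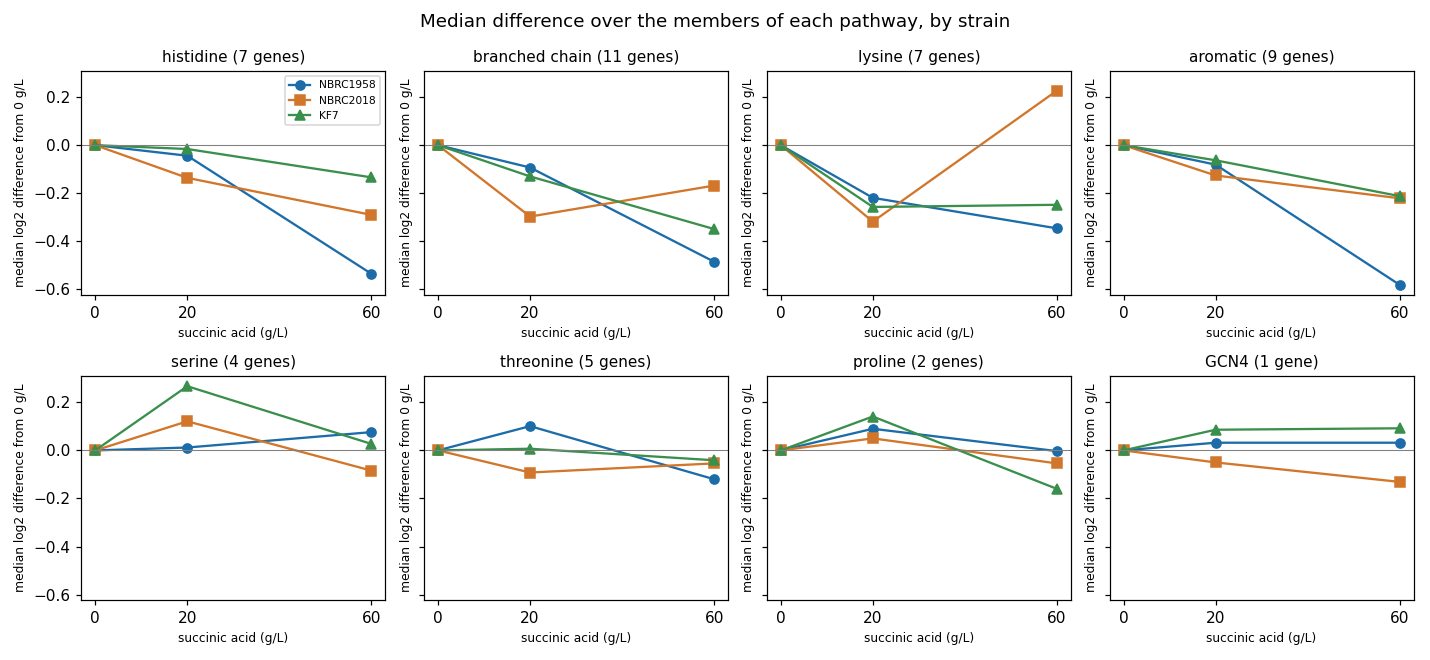
Median log2 difference from the 0 g/L array of the same strain (vertical axis) over the members of each pathway, against succinic acid in g/L (horizontal axis), with 1 line per strain and no error because each point comes from single arrays. Lysine genes in NBRC2018 return from below 0 at 20 g/L to 0.23 at 60 g/L, while the histidine and aromatic medians are lowest in NBRC1958 at 60 g/L.

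Of 9 measured aromatic genes 3 fell at 60 against 0 g/L, all in the part of the pathway that leads to chorismate, the common precursor of tryptophan, phenylalanine and tyrosine. ARO3 and ARO4 encode the isozymes of the first step, DAHP synthase, which are inhibited by phenylalanine and tyrosine respectively. ARO3 (YDR035W) had signals of 3767, 3339 and 1889 in NBRC1958, 2757, 2349.7 and 1551 in NBRC2018 and 2934, 2409 and 1835 in KF7. Every strain was lower at each higher dose, and the 60 g/L arrays lay below all others. The mean went from 3153 ± 539 to 1758 ± 182, a log2 difference of -0.83 (SE 0.102, adjusted p = 0.00322). ARO4 (YBR249C) gave 1449, 1385 and 909 in NBRC1958, 1418, 1310.5 and 1042 in NBRC2018 and 1931, 1553 and 1149 in KF7 and had the same order of doses in every strain. Its mean went from 1599.6 ± 288 to 1034 ± 120.3, a difference of -0.61 (SE 0.0982, adjusted p = 0.00614). Both passed with any single array left out.

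ARO2 (YGL148W), the chorismate synthase, had signals of 1890.0, 1816 and 891 in NBRC1958, 1589.6, 1419 and 1113 in NBRC2018 and 1773, 1872 and 1156 in KF7. The 60 g/L signal was the lowest in each strain, and all 3 lay below the lowest of the other arrays. The difference at 60 against 0 g/L was -0.73 (SE 0.135, adjusted p = 0.01), and the adjusted p was 0.0632 when the unstressed NBRC1958 array was dropped. ARO1, the pentafunctional enzyme between these steps, had a difference of -0.25 and did not pass (adjusted p = 0.356). NBRC2018 was higher at 60 g/L (0.36), and NBRC1958 (-0.69) and KF7 (-0.42) were lower.

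Beyond chorismate no aromatic member passed at 60 against 0 g/L. TRP4 (YDR354W), the anthranilate phosphoribosyltransferase, had signals of 297, 294 and 234 in NBRC1958, 445, 385 and 342 in NBRC2018 and 477, 403 and 409 in KF7. It was lower at 60 than at 0 g/L in each strain (difference -0.30, adjusted p = 0.0537), and NBRC1958 was the lowest strain at each dose. The anthranilate synthase genes TRP2 (-0.10) and TRP3 (-0.17), the tryptophan synthase gene TRP5 (-0.06) and the chorismate mutase gene ARO7 (0.09) lay closer to 0. ARO8, an aromatic aminotransferase that is no member, fell from 1758 ± 147 to 1315 ± 247 (difference -0.43, adjusted p = 0.0455), and TYR1 of tyrosine synthesis did not pass (0.09).

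The serine genes held the rise among the members as well as one of the falls. SER3 and SER33 encode isozymes of 3-phosphoglycerate dehydrogenase, the first step from glycolysis to serine. SER3 (YER081W) had signals of 1942, 1817 and 2862 in NBRC1958, 1159, 1550.4 and 3189.7 in NBRC2018 and 696, 945 and 1963 in KF7. It was highest at 60 g/L in every strain, and NBRC1958 had the highest starting level. The mean went from 1266 ± 629.6 to 2671 ± 635, a log2 difference of 1.16 (SE 0.171, adjusted p = 0.00502), which passed with any single array left out.

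SER33 (YIL074C) gave 614, 438 and 349 in NBRC1958, 954, 1068 and 540.1 in NBRC2018 and 1381, 1483 and 790.1 in KF7. Within each strain the 60 g/L signal was the lowest, the strains lay far apart, and the dose groups overlapped. NBRC1958 had a difference of -0.79 at 60 against 0 g/L, NBRC2018 of -0.80 and KF7 of -0.79. The fitted difference was -0.80 (SE 0.142, adjusted p = 0.00876, or 0.0577 when the unstressed NBRC1958 array was dropped). SER1 (YOR184W), the phosphoserine aminotransferase, gave 1276, 1387 and 960.3 in NBRC1958, 1265, 1341 and 1139.8 in NBRC2018 and 1489, 1525 and 1277 in KF7. It was lowest at 60 g/L in each strain and did not pass against 0 g/L (-0.26, adjusted p = 0.0803). SER2, the phosphoserine phosphatase, had a difference of 0.28 (adjusted p = 0.182).

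**Figure D3:**
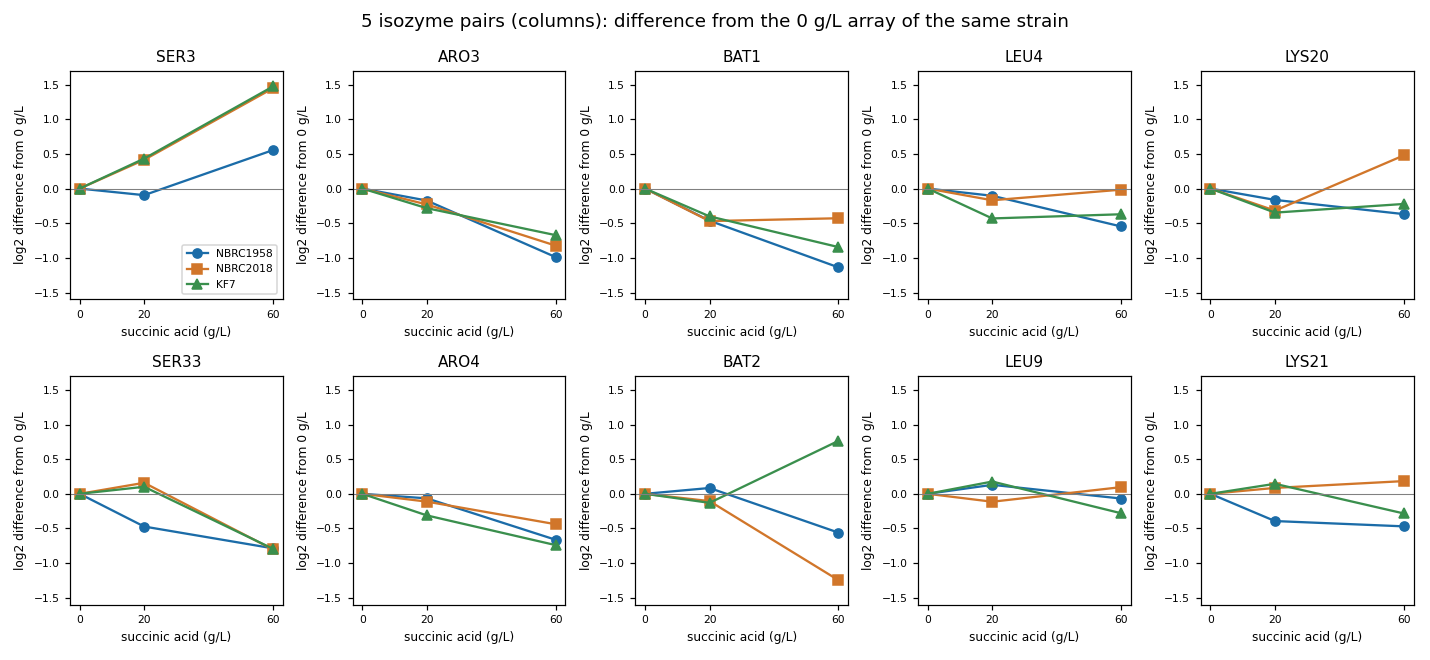
Log2 difference from the 0 g/L array of the same strain (vertical axis) against succinic acid in g/L (horizontal axis) for 5 isozyme pairs, 1 pair per column, with 1 line per strain and 1 array per point. SER3 and SER33 lie on opposite sides of 0 at 60 g/L in all 3 strains, ARO3 and ARO4 both lie below 0, and BAT2 separates the strains.

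The isozyme pairs thus differed in how their members moved. SER3 rose and SER33 fell, ARO3 and ARO4 both fell, and BAT1 fell while BAT2 did not pass. Neither gene of the pairs LEU4 and LEU9 or LYS20 (-0.04) and LYS21 passed. Whether a probe set also reads the transcript of the paired isozyme was not tested.

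The threonine branch starts from aspartate. HOM2 and THR1 fell, and 3 genes did not pass. HOM2 (YDR158W), the aspartate semialdehyde dehydrogenase, had signals of 3092, 2774 and 2187 in NBRC1958, 3010.2, 2489 and 2327 in NBRC2018 and 4019, 3223 and 2699 in KF7. Each strain was lower at each higher dose. The mean went from 3374 ± 561 to 2404 ± 265, a difference of -0.48 (SE 0.0901, adjusted p = 0.0102). THR1 (YHR025W), the homoserine kinase, gave 925, 993 and 619 in NBRC1958, 1276, 1196 and 917 in NBRC2018 and 1086, 1043 and 812 in KF7, lowest at 60 g/L in each strain. Its difference was -0.48 (SE 0.0945, adjusted p = 0.0117). With the unstressed NBRC1958 array dropped the adjusted p was 0.0532 for HOM2 and 0.061 for THR1.

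HOM3 (YER052C), the aspartate kinase of the first step, had signals of 660.1, 745 and 909 in NBRC1958, 674, 566 and 745 in NBRC2018 and 669.6, 816 and 908 in KF7. The 60 g/L arrays all lay above the 0 g/L arrays, and the difference of 0.34 did not pass (adjusted p = 0.0637). HOM6, the homoserine dehydrogenase, had a positive difference in each strain and likewise did not pass (0.23, adjusted p = 0.0843). THR4, the threonine synthase, had one of -0.07. For proline, PRO1 (YDR300C), the glutamate kinase, gave 404, 486 and 454 in NBRC1958, 606, 673 and 616 in NBRC2018 and 503, 647 and 482 in KF7, and PRO2 (YOR323C), the reductase of the next step, 675, 639 and 599 in NBRC1958, 787, 761 and 717 in NBRC2018 and 768, 731 and 638 in KF7. PRO1 was highest at 20 g/L in each strain, and PRO2 was lowest at 60 g/L in each. Their differences at 60 against 0 g/L were 0.04 and -0.19, and neither passed (adjusted p = 0.778 and 0.127). PRO3, of the last step of proline synthesis and no member, had -0.31 (adjusted p = 0.0627).

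**Figure D4:**
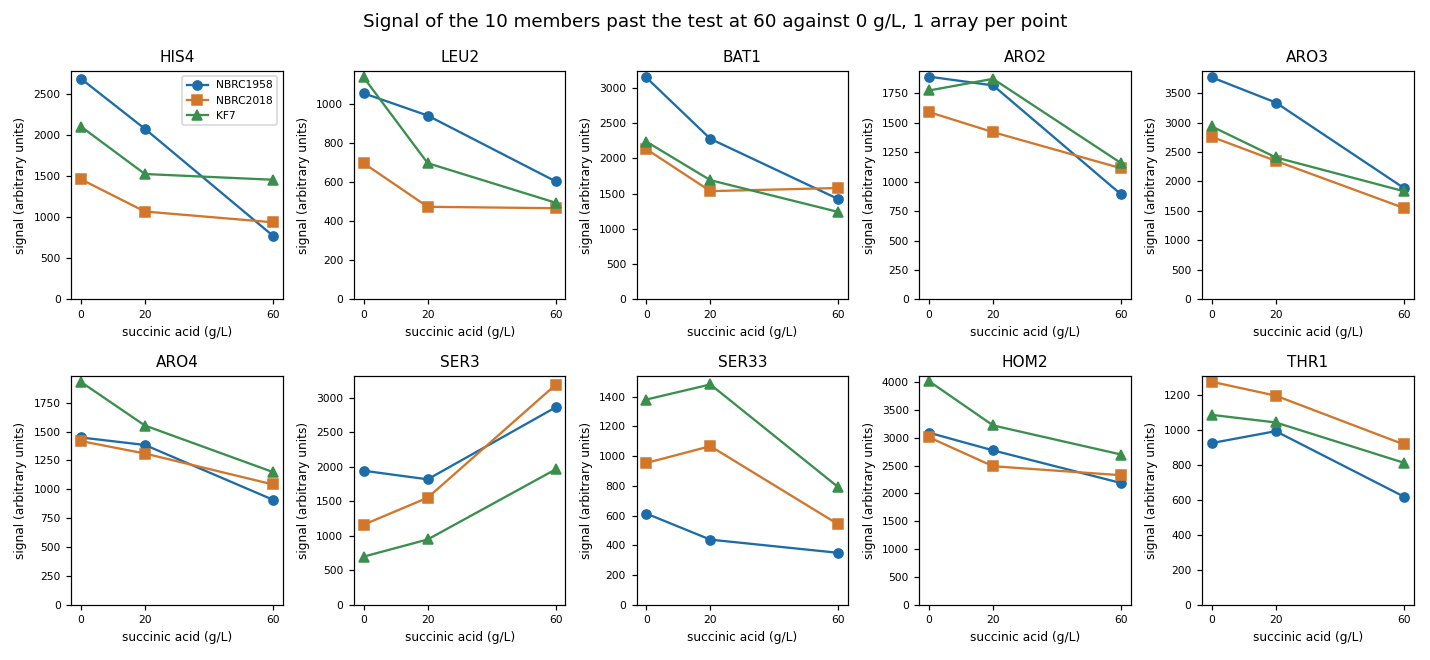
Signal in arbitrary units (vertical axis, from 0) against succinic acid in g/L (horizontal axis) for the 10 members that passed at 60 against 0 g/L, with 1 line per strain and 1 array per point. ARO3 declines from 3153 to 1758 in the mean of the strains, SER3 climbs from 1266 to 2671, and SER33 lies at a different level in each strain and is lowest at 60 g/L in all 3.

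The lower dose asks whether these changes begin at 20 g/L. None of the 46 members passed at 20 against 0 g/L by limma, where 0.0229% of all genes did, a single gene that is no member. At an unadjusted p under 0.05 there were 6 members (13%) against 158 of all 4359 genes (3.62%). They went both ways: LEU2, BAT1, LYS1 and HOM2 were lower at 20 g/L, and SER2 (0.36) and PRO1 (0.25) were higher. The median difference was -0.07 over the members and 0.01 over all genes. Negative values were found for 33 of 46 members (71.7%) against 46.4% of all genes. LEU2 (-0.47), LYS1 (-0.46), BAT1 (-0.45), LEU1 (-0.43) and HIS4 (-0.42) had the most negative values, each with an adjusted p of 0.953. LEU1 and HIS4 were not among the 6.

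At 60 against 20 g/L, a comparison that shares its arrays with the other dose comparisons, 6 members fell (13%, against 10.2% of all genes) and 2 rose (4.35%, against 5.78%). ARO2 (-0.68, adjusted p = 0.0186), ARO3 (-0.60, 0.0125), ARO4 (-0.45, 0.0231), SER33 (-0.72, 0.0182), THR1 (-0.47, 0.0196) and SER1 (-0.34, 0.0469) fell. The SER1 call held in 0 of the 9 fits that left out 1 array, and not under quantile normalization or median centring. SER3 rose by 0.91 (adjusted p = 0.0165), and LEU1 was the other rise. LEU2, BAT1, HIS4 and HOM2 did not pass here, with differences of -0.38, -0.36, -0.55 and -0.23. The count of 8 was 1 without any single array at 20 g/L and 4 without the 60 g/L array of NBRC1958 or of NBRC2018, and no call held with every array left out in turn.

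The strains differed in 20 of 46 members over all doses (43.5%, F test, against 36.2% of all genes). These included 6 of the 7 histidine genes and 3 of the 4 serine genes, but 1 of the 7 lysine genes. A difference in RNA and a mismatch between a strain's sequence and the probes cannot be told apart in these comparisons. Against NBRC1958, 10 members were higher in KF7 (21.7%, against 9.45% of all genes) and 1 was lower (2.17%, against 9.66%). NBRC2018 was higher than NBRC1958 in 12 members (26.1%, against 16.3%) and lower in 2 (4.35%, against 11.5%). Between KF7 and NBRC2018, 6 members were higher in KF7 (13%, against 7.13%) and 3 lower (6.52%, against 9.29%), a split that was 3 and 3 under quantile normalization. When the 60 g/L NBRC1958 array was dropped, the splits against NBRC1958 were more even, with 7 higher and 5 lower in KF7 and 11 higher and 9 lower in NBRC2018.

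**Figure D5:**
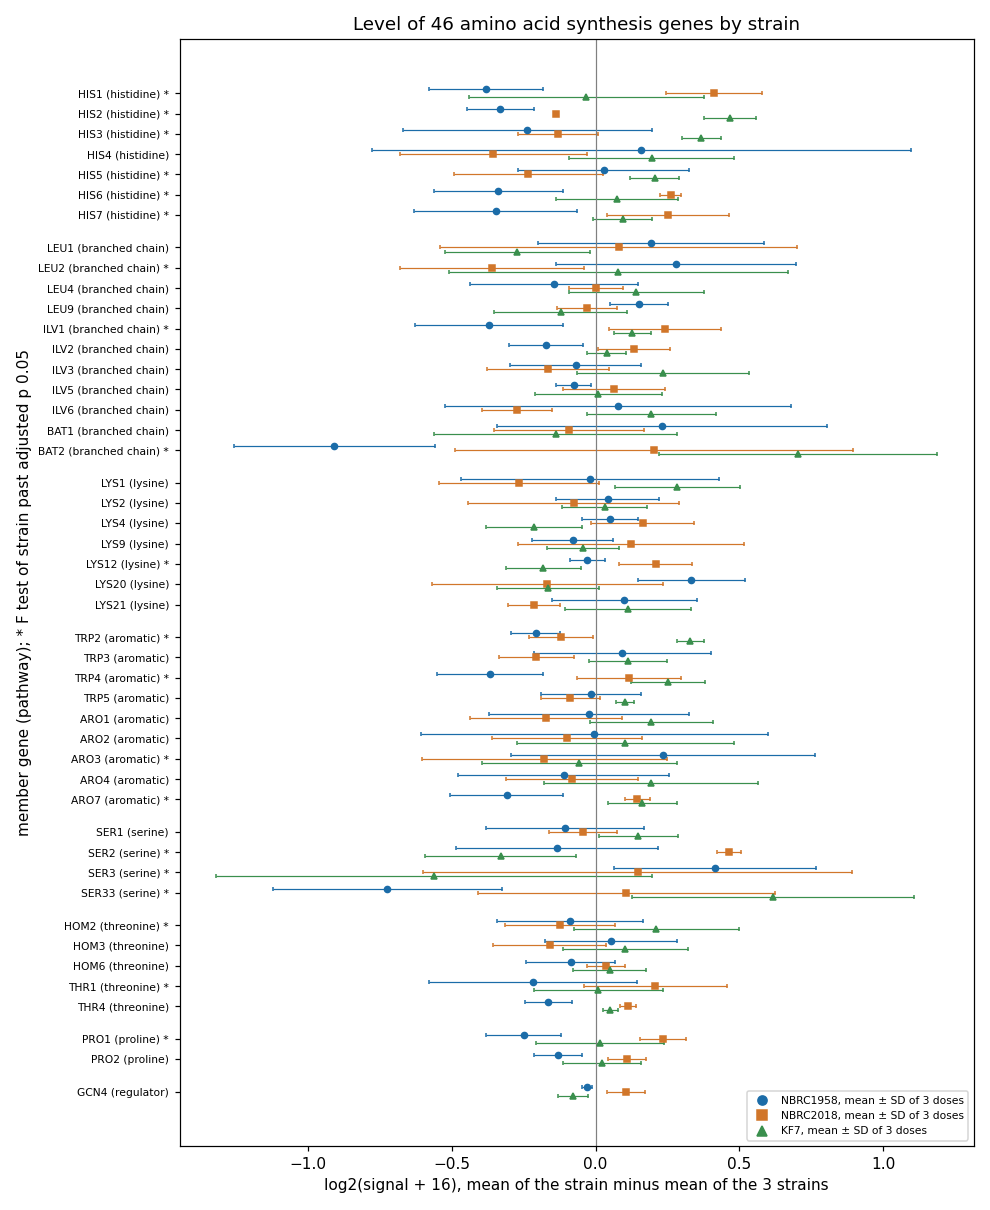
Mean of log2(signal + 16) over the 3 doses of a strain minus the mean of the 3 strains (horizontal axis) for each of the 46 members (vertical axis), with bars of 1 SD over the doses. Asterisks mark the 20 members past the F test of strain, and NBRC1958 lies left of the other strains for HIS6, HIS7, ILV1, BAT2, TRP4, ARO7 and SER33.

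SER33 gave the clearest order, at 467 ± 135 in NBRC1958, 854 ± 278 in NBRC2018 and 1218 ± 374 in KF7 (mean ± SD of 3 doses). Each pair of strains passed, with a log2 difference of 1.34 between KF7 and NBRC1958 (adjusted p = 0.00136), 0.83 between NBRC2018 and NBRC1958 (0.00725) and 0.51 between KF7 and NBRC2018 (0.0455). The SER33 call between KF7 and NBRC2018 held in 2 of the 9 fits that left out 1 array, and not under quantile normalization. SER3 ran the other way, lower in KF7 than in NBRC1958 by a difference of -0.98 (adjusted p = 0.009) and than in NBRC2018 by one of -0.71 (0.0316). HIS2 was higher in KF7 (453 ± 29.5) than in NBRC1958 (254 ± 21.5) and NBRC2018 (292 ± 0.253), with adjusted p of 0.00241 and 0.00818. HIS1 was higher in NBRC2018 than in NBRC1958 (0.79, adjusted p = 0.00856), and so was ILV1 (0.61, 0.0076). TRP2 (0.54, 0.00691) and TRP4 (0.62, 0.00512) were higher in KF7 than in NBRC1958. BAT2 had the widest range between strains among the members, with 1.61 between KF7 and NBRC1958 (adjusted p = 0.0195), and LYS12 was the single lysine gene past a strain test, lower in KF7 than in NBRC2018 (-0.39, 0.0355).

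With each array left out in turn, 5 of 11 calls between KF7 and NBRC1958 held throughout (HIS2, TRP2, TRP4, SER3 and SER33), 3 of 14 between NBRC2018 and NBRC1958 (HIS1, ILV1 and SER33) and 1 of 9 between KF7 and NBRC2018 (HIS2). The 11 became 5 when the unstressed NBRC1958 array was dropped and 6 when the 20 g/L array of NBRC1958 or KF7 was. The 14 became 6 when the 0 or 20 g/L array of NBRC1958 was dropped and 3 when the unstressed NBRC2018 array was. The 9 became 2 to 5 with any single array dropped other than the 60 g/L one of NBRC1958, which gave 12.

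Whether the strains answered the acid differently was tested as a difference between the slopes on dose. No member passed, nor did any gene (0% of 4359), by limma. At an unadjusted p under 0.05 there were 7 members (15.2%) against 421 of all genes (9.66%). The 7 were BAT2, HIS4, ARO1, TRP3, SER3, ILV6 and HIS3, each with an adjusted p of at least 0.462. Among them SER3 had slopes of 0.62 in NBRC1958, 1.46 in NBRC2018 and 1.49 in KF7 on the same scale, positive in all 3 strains. The median slope of the members, as a log2 change per 60 g/L, was -0.35 in NBRC1958, -0.09 in NBRC2018 and -0.18 in KF7, beside -0.08, -0.05 and -0.05 over all genes.

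Genes that supply or share the nitrogen of these pathways were read from a list outside the members. Of 5 tested genes of ammonia assimilation and asparagine synthesis, 1 fell at 60 against 0 g/L and none rose. Over all genes tested, 14.2% fell and 8.67% rose. GLN1, the glutamine synthetase, fell from 3954 ± 412 to 2683 ± 205 (difference -0.56, adjusted p = 0.014), and GLT1 (0.25, 0.127) and ASN2 (-0.30, 0.147) did not pass. Over all 44 tested genes of the neighbouring lists, 5 fell (11.4%, against 14.2% of all genes) and 1 rose (2.27%, against 8.67%). Their median difference was 0.02, beside -0.05 over all genes.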

How the data were processed

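The authors deposited an intensity on a linear scale for every probe set of every array. Array medians are nearly equal. Scanning, background correction, summary and normalization are not described in the labels used here. Per the labels, Trizol was used to extract total RNA, and the cRNA made from it carried biotin. The number of arrays limits the precision.

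Of 10928 probe sets, 5498 had 1 S. cerevisiae gene by GEO's platform annotation, with symbols updated through a RefSeq table (assembly R64), and stood for 5449 genes. Where a gene had several, the brightest on average stood for it. The analysis used log2(value + 16) and left out the lowest 20% of genes by mean level (under a signal of 118), which left 4359.

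The main fit used lmFit and eBayes of limma 3.58.1 (R 4.3.3) over all 9 arrays, with strain and dose as additive factors (4 residual degrees of freedom). Strain is the block of the dose comparisons because same-strain arrays share the strain. Unequal slopes were tested with a straight line on dose within each strain, which leaves 3 residual degrees of freedom. P-values were adjusted by Benjamini-Hochberg over all genes, threshold 0.05.

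The members and lists were chosen with earlier results of these data known. Values on every array are given for GCN4 and, by pathway, for the 3 members with the smallest p at 60 against 0 g/L and the 1 with the smallest p in the F test of strain. Genes that are no member are named from fixed lists, up to 3 per list by the smallest p, and LEU1, BAT2, GCN2, LEU3, LYS14, PUT4 and PUT3 stand outside this rule. Alternatives were other normalizations, offsets, filters and variance models, left-out arrays and strains, and fits without the block. A planned search of promoters for the Gcn4 motif was not run, and no sequences were used here.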

Additional observations from a re-analysis of the deposited data

How the results depend on the processing

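The calls of 0 members at 20 against 0 g/L and for unequal slopes were also 0 under every alternative run for them. Quantile normalization, median centring, offsets of 1 and 64, no level filter, leaving out the lowest 50% of genes, an intensity trend, a robust fit and averaging over probe sets kept the total of members past each test within 1.5 times. The deposited array medians already lay between 294 and 311, so median centring had little to change. By direction, quantile normalization gave 3 higher and 3 lower for KF7 against NBRC2018 (6 and 3 in the fit reported), and it and the intensity trend gave 2 in place of 1 higher at 60 against 0 g/L. Without the replicate block (strain left out) the count at 60 against 0 g/L and at 60 against 20 g/L was 0, with 10 and 8 in the paired fit. Without dose in the model the strain counts were 4 for KF7 against NBRC1958, 3 for KF7 against NBRC2018 and 4 for NBRC2018 against NBRC1958. At 60 against 0 g/L the count was 3 without strain NBRC1958 (ARO3, SER3 and SER33) and 6 without NBRC2018. At 60 against 20 g/L it was 3 without KF7, 2 without NBRC1958, 0 without NBRC2018, and 4 with only the arrays compared. The cause of these shifts was not tested, and the fits without a strain hold fewer arrays.

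Leaving out each array in turn gave 4 to 16 members at 60 against 0 g/L, 1 to 8 at 60 against 20 g/L, 5 to 12 for KF7 against NBRC1958, 2 to 12 for KF7 against NBRC2018 and 3 to 20 for NBRC2018 against NBRC1958. HIS4 between KF7 and NBRC1958 turned from 0.04 (not past the test) to -0.376 (adjusted p = 0.033) when the 60 g/L NBRC1958 array was dropped, in a range of -0.376 to 0.263 over all arrays dropped, and the cause was not tested.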

Other observations

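Amino acid uptake and breakdown genes were read beside the synthesis genes. Of 12 tested permease and sensor genes, LYP1, the lysine permease, fell from 2064 ± 258 to 1444 ± 193 at 60 against 0 g/L (difference -0.51, adjusted p = 0.0379), and none rose. Over all genes tested, 14.2% fell and 8.67% rose in that comparison. MUP1, the high-affinity methionine permease, went from 378 ± 206 to 881 ± 521 and did not pass (1.11, adjusted p = 0.0616), and STP2, a factor activated by the amino acid sensor, had 0.27 (adjusted p = 0.0946). None of 6 tested breakdown genes passed by limma at 60 against 0 g/L, nor at an unadjusted p under 0.05. GDH2, the glutamate dehydrogenase of breakdown, went from 711 ± 258 to 1160.0 ± 749.8 (0.58, adjusted p = 0.15). At 60 against 20 g/L, PUT1, the proline oxidase, rose by 1.77 (adjusted p = 0.0204), the one breakdown gene past the test. Its signals at 0, 20 and 60 g/L were 218, 123 and 739.6 in NBRC1958, 169, 82.6 and 179 in NBRC2018 and 654, 131 and 531 in KF7. STP2 rose in that comparison by 0.39 (adjusted p = 0.045).

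PUT4, the proline permease, lay below the level filter and was not tested. In NBRC2018 it was close to the background of other-organism probe sets at 0 and 20 g/L (95th percentile 14.7 and 15). At 60 g/L it lay further above that background (15.8). Its signals at 0, 20 and 60 g/L were 101, 139 and 350.0 in NBRC1958, 20.3, 28.2 and 62.7 in NBRC2018 and 112, 87.1 and 415 in KF7, highest at 60 g/L in each strain. PUT3, the activator of proline use, was also below the filter, with signals of 82.8, 98.6 and 167 in NBRC1958, 79.9, 78.3 and 99.6 in NBRC2018 and 57.8, 69.8 and 112 in KF7. It too was highest at 60 g/L in each strain. Both were chosen after their values were seen.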
